A study of Mus musculus with 5 samples.

Results

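Hepatocytes, the main metabolic cells of the liver, were compared between livers sampled 16 h and 8 h after food removal by droplet-based single-cell RNA sequencing. A barcode counted as a hepatocyte when it held at least 1000 unique molecular identifiers (UMIs, each standing for 1 captured RNA molecule), at least 500 genes, 2 to 30% mitochondrial UMIs and under 2% haemoglobin UMIs. By this rule 9125 of 10000 barcodes at 16 h and 2716 of 10000 at 8 h were hepatocytes, 11841 of the 50000 barcodes in the series. The UMIs of each library's hepatocytes were summed and scaled to counts per 1000000 UMIs of genes outside the mitochondrial genome (CPM).

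All livers came from male wild-type C57BL/6J mice whose feeding had been restricted to 8 h in the daytime, with 16 h without food overnight, over 3 days of training, and that were given chow and drinking water with 20% sucrose on the day of sampling. The fed library (0 h) was taken after 4 h of feeding, and the libraries called 4, 8, 16 and 24 h were taken that long after food and sucrose had been removed. The 8 h library was collected at clock hour 21 and the 16 h library at clock hour 5, so that hours without food and time of day cannot be told apart in this comparison. Each time point was 1 library, and the labels do not state how many animals it pooled. With 1 library a side there was no replicate check and no test: intervals are 95% intervals that cover counting error only.

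In fasting, hepatocytes keep blood glucose up by releasing it from glycogen and by making it from lactate, glycerol and amino acids (gluconeogenesis), while nitrogen from the amino acids leaves as urea. Glucagon and glucocorticoids drive these programmes, and a circadian clock of repressors and activators times many of the same genes. Hepatocytes also secrete most plasma proteins, among them acute-phase proteins, whose genes respond to the cytokines interleukin-6 and interleukin-1.

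The hepatocytes gave 33821768 UMIs of genes outside the mitochondrial genome at 8 h and 33521626 at 16 h, so that 1 UMI was worth 0.0296 and 0.0298 CPM. Depth per cell differed: the median hepatocyte held 15005 UMIs and 3282.5 genes at 8 h, and 4391 UMIs and 1572 genes at 16 h, with median mitochondrial shares of 9.79% and 13.7%. All 10 hepatocyte markers stood at 50 CPM or more in both libraries. Markers of other cells summed to 17.4 CPM at 8 h and 44.2 CPM at 16 h for endothelial cells (14 markers), 0.443 and 7.58 CPM for Kupffer cells and macrophages (12 markers, 8 of them at 0 at 8 h), 39.4 and 21.4 CPM for stellate cells (12 markers), and at most 0.503 CPM for lymphocytes, neutrophils and dendritic cells. Cholangiocyte markers summed to 35.8 and 76.1 CPM, most of it Sox9 (29.2 and 70.3 CPM), and erythroid markers to 80.2 and 36.0 CPM. Of the 2716 hepatocyte barcodes at 8 h, 7 (0.258%) had the same barcode sequence as a hepatocyte barcode at 16 h.

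Of 3059 genes with at least 50 CPM in either library, 346 (11.3%) were at least 2-fold higher at 16 h and 298 (9.74%) at least 2-fold lower. These shares are the background for the counts below, in which a gene is called higher or lower when it passed the same limits. A list member can reach 50 CPM through the library in which it is high, so that counts over listed genes describe the members that passed and not the whole list. Beside each list's median stands, in square brackets, its lowest and highest value over up to 26 alternative settings of scaling, gene minimum and choice of cells. The median log2 ratio of 16 h over 8 h was 0.07 over all 3059 genes, and 49 genes were at least 4-fold higher and 26 at least 4-fold lower. Scaling by trimmed means (TMM) lowered the median of these genes to -0.11 and gave 222 higher and 446 lower genes, and median-of-ratios scaling gave -0.08, with 240 higher and 414 lower. The share of calls that were higher thus went from 53.7% to 33.2% and 36.7%. Placed among the 5 libraries, 231 of the 346 higher genes had their highest level of all libraries at 16 h and 272 their lowest at 8 h, while 201 of the 298 lower genes had their lowest level at 16 h and 210 their highest at 8 h; being called for this contrast favours such places.

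**Figure D1:**
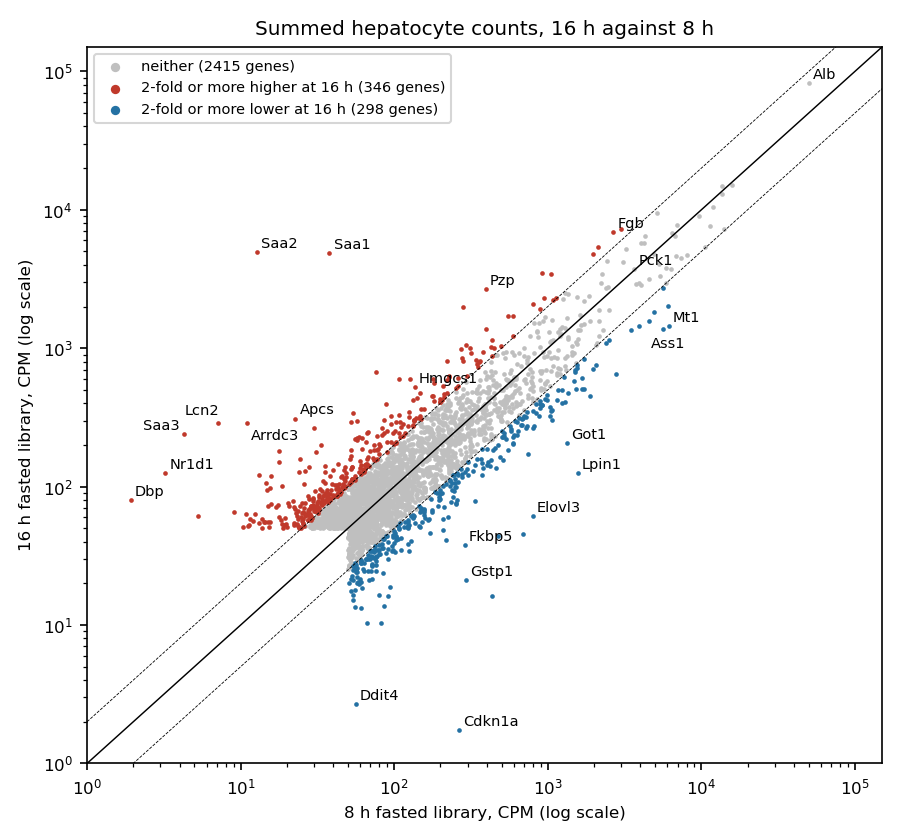
Each point is a gene with 50 CPM or more in either library, placed by its CPM at 8 h (x axis, log scale) and 16 h (y axis, log scale). The solid line marks equal levels and the dashed lines 2-fold. The 346 higher genes are red, the 298 lower genes blue, and serum amyloid genes and Cdkn1a lie farthest from the line.

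The genes with the highest ratios were led by serum amyloid A, small secreted proteins that ride on high-density lipoprotein during inflammation. Saa2 (ENSMUSG00000057465, chromosome 7, 46751790 to 46754313, plus strand, GRCm38) stood at 217 CPM at 0 h, 1085 CPM at 4 h, 12.8 CPM at 8 h, 4946 CPM at 16 h and 9.66 CPM at 24 h. Its log2 ratio of 16 h over 8 h was 8.59 (8.45 to 8.73), a 385-fold difference. Saa1, its neighbour (ENSMUSG00000074115, chromosome 7, 46740497 to 46742980, minus strand), stood at 382, 1148, 37.9, 4880 and 21.1 CPM in the same order, with a log2 ratio of 7.01 (6.93 to 7.09). Both genes were thus high at 16 h, intermediate at 4 h and lowest at 8 and 24 h. Saa3, the third inducible member, was low in every library but that of 16 h: it stood at 6.54, 5.95, 4.29, 238 and 3.62 CPM.

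Saa1 and Saa2 face away from each other and differ little, and the bases before their starts are shown because the 2 genes moved together. Of the 207 bases shown from each (RefSeq, GRCm38.p6), 195 are identical in an alignment of 208 columns (93.8%). Capitals mark the bases that the alignment does not pair with an identical base. Saa1 is chr7:46743024-46743230 on the minus strand and Saa2 chr7:46751583-46751789 on the plus strand, each 5' to 3' towards its gene.
Saa1: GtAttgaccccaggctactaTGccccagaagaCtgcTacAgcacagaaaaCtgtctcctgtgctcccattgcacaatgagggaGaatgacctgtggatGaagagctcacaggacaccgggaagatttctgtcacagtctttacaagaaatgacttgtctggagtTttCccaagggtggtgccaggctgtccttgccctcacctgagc
Saa2: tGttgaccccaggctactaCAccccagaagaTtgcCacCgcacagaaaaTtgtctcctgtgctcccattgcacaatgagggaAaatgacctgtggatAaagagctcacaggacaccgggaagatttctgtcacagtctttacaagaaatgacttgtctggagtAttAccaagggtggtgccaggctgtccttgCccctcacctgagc
The last 300 bases of their transcripts, from which the 3' reads of this chemistry come, are 92.4% identical in GENCODE M21, so that reads may be shared between the 2 genes and their split is uncertain.

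Acute-phase genes as a list had 28 of 34 members at 50 CPM or more. Of these, 11 were higher and 2 lower, with a median log2 ratio of 0.71 [0.02 to 1.04]. The lowest value, 0.02, was that of the cells at or below their library's median share of serum amyloid and Lcn2 UMIs, and in the low serum amyloid range described below it was 0.07. Lcn2, an iron-siderophore binding protein, stood at 7.07 CPM at 8 h and 287 CPM at 16 h (log2 ratio 5.34, 5.16 to 5.53). Apcs, the serum amyloid P component, stood at 22.7 and 310 CPM (3.77, 3.67 to 3.88), and Orm2, an orosomucoid, at 13.1 and 121 CPM (3.21, 3.06 to 3.35). The 3 fibrinogen chains, the substrate of clotting, moved by similar amounts: Fga stood at 3019 and 7253 CPM, Fgb at 2658 and 6906 CPM and Fgg at 2117 and 5377 CPM, with log2 ratios of 1.26, 1.38 and 1.34. The other higher members were Cp and Lrg1, and the lower members were Saa4 and Mt2. Fgl1, a secreted liver protein (75.9 and 672 CPM), and Foxq1, a transcription factor (17.7 and 182 CPM), also had their lowest level of the 5 libraries at 8 h.

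Upstream bases of Apcs and Fgb are shown because a short motif of the kind bound by the cytokine-activated factor STAT3 lies there. Capitals mark CTGGGAA on either strand (TTCCCAG against the gene). The 250 bases end 1 base before the RefSeq start (GRCm38.p6), at chr1:172895055-172895304 for Apcs and chr3:83049864-83050113 for Fgb, both on the minus strand.
Apcs: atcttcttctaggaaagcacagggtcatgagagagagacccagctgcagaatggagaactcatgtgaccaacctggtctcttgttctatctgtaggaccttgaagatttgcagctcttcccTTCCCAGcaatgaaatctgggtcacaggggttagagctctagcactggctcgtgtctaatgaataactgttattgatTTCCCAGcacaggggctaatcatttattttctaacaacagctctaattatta
Fgb: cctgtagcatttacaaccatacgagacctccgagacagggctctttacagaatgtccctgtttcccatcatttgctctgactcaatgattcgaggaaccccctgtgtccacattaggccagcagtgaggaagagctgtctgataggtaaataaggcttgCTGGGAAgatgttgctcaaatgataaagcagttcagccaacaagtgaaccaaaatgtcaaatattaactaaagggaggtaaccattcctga
The motif began 129 and 52 bases before the start of Apcs and 91 bases before that of Fgb. It was present in the 250 bases before a start for 4 of the 11 higher acute-phase genes (Apcs, Fgb, Fgg and Lrg1). It was present for 9.1% of the 32851 starts in the table. A gene counted if any of its starts held the motif, so that a share of genes and a share of starts are unlike units. A match describes letters and is no evidence of binding.

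Within single cells, the 16 h hepatocytes fell into 2 ranges by serum amyloid. When each hepatocyte with at least 1000 non-mitochondrial UMIs was thinned to 1000, 3454 of 9003 cells at 16 h (38.4%) held at most 1 Saa1 or Saa2 UMI, 477 (5.3%) held 2 or 3 and 5072 (56.3%) held 4 or more. At 8 h, 2673 of 2691 cells (99.3%) held at most 1. The median depth of the low and high ranges at 16 h was 4270 and 4669.5 UMIs, and their median mitochondrial shares were 16.1% and 12.3%. Endothelial-like cells of the 16 h library, described below, held on average 0.69 Saa1 and 1.11 Saa2 UMIs per 1000. Counts in the low range thus cannot be told from background RNA. The split, set after seeing the distribution, is a cut through counts and names no cell type, and whether the library pooled animals that differed was not tested.

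**Figure D2:**
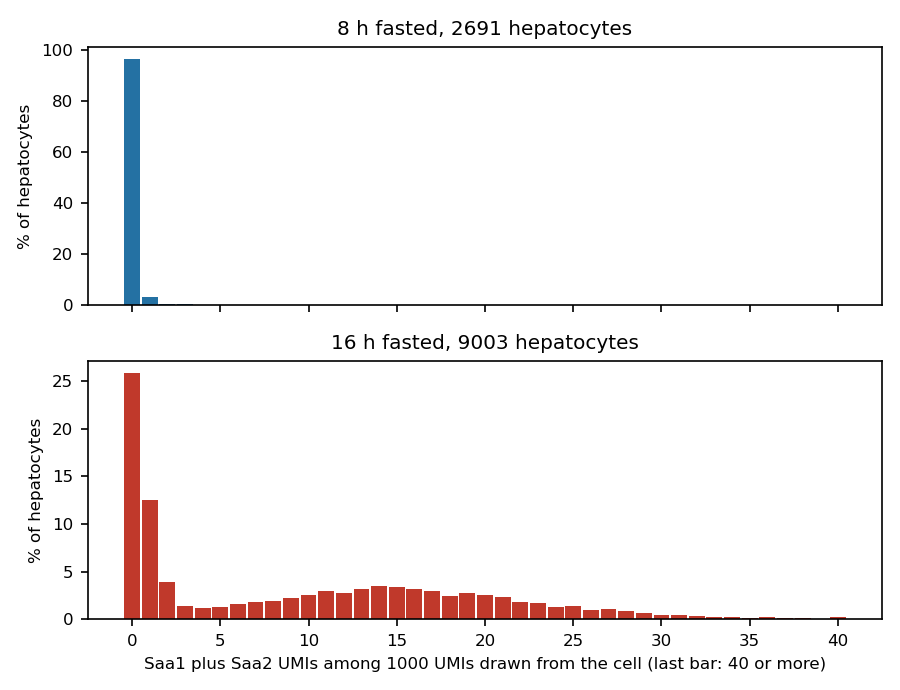
Bars give the percentage of hepatocytes (y axis) by the number of Saa1 plus Saa2 UMIs among 1000 UMIs drawn from each cell (x axis), at 8 h (2691 cells) and 16 h (9003 cells). At 8 h nearly all cells sit at 0 or 1, and at 16 h 38.4% do so while 56.3% hold 4 or more.

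Each range was set beside all 8 h hepatocytes. The low range gave 341 higher and 304 lower genes, and the high range 353 and 299. Of the 346 higher genes, 298 were also called in the low range and 319 in the high range, and of the 298 lower genes 270 and 276. Several acute-phase and secreted-protein genes differed between the ranges: Fgl1 stood at 235 CPM in the low and 963 CPM in the high range, Lcn2 at 17.5 and 465 CPM, and Lrg1 at 519 and 1923 CPM. Apcs stood at 83.8 and 460 CPM, with log2 ratios over 8 h of 1.89 and 4.34. Fgb differed less, at 5530 and 7795 CPM, both above the 2658 CPM at 8 h. In the low range Fgb kept its 2-fold call (log2 ratio 1.06), while Fga (0.90), Fgg (0.96) and Orm2 (0.997) fell just short of it. Serpina1e, an alpha-1-antitrypsin paralogue singled out after its values were seen, stood at 10519 CPM at 8 h, 1321 CPM in the low range and 8116 CPM in the high range; its near-identical family members make its count uncertain. G6pc, the glucose-6-phosphatase gene, lay on opposite sides of its 8 h level of 729 CPM, at 1198 CPM in the low and 516 CPM in the high range.

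Clock genes moved in both directions. Nr1d1 (REV-ERB alpha, a repressor of the clock activators) stood at 14.1, 3.38, 3.22, 125 and 8.94 CPM at 0, 4, 8, 16 and 24 h, a log2 ratio of 5.27 (5.00 to 5.56). Nr1d2, its paralogue, stood at 18.5 CPM at 8 h and 102 CPM at 16 h (2.46), and Bhlhe40, another repressor, at 68.0 and 246 CPM (1.86). Cry1, which represses the clock activators together with the period proteins, was lower, at 53.7 and 16.3 CPM (-1.71). Clock (70.6 and 64.6 CPM) and Rora (226 and 249 CPM) passed neither limit, and the sign of Rora turned with TMM (-0.04). The list gave 3 higher and 2 lower of 7 measured, and its median of 0.14 [-0.12 to 1.79] ranged from -0.12 with a minimum of 10 CPM to 1.79 with all UMIs in the denominator (-0.04 with TMM, 1.17 in cells with 3000 to 10000 UMIs). The other 8 of 15 core members stayed under 50 CPM in both libraries: the activators Arntl (30.5 and 6.35 CPM) and Npas2 (4.97 and 0.0895 CPM, from 3 UMIs at 16 h, a log2 ratio of -5.79 with an interval of -8.09 to -4.22) had lower values at 16 h, and Per2 (1.63 and 9.43 CPM), Per3 (2.37 and 19.7 CPM) and Bhlhe41 (0.769 and 8.80 CPM) higher, with Per1, Cry2 and Ciart between 4.79 and 28.4 CPM.

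Among 24 measured clock output genes, 5 were higher and 13 lower (median -1.09 [-2.11 to -0.66]). Dbp, a clock-driven activator, stood at 55.3, 6.17, 1.92, 79.7 and 62.9 CPM over the 5 libraries (5.37, 5.02 to 5.75). It was low at 4 and 8 h and high in the other 3 libraries. Elovl3, a fatty acid elongase, ran the other way: 6.46, 234, 798, 61.4 and 14.96 CPM, a log2 ratio of -3.70 (-3.77 to -3.64). Por, the electron donor of cytochromes P450, stood at 738 and 171 CPM (-2.11), and Slc45a3 and Upp2 were lower too, by -2.66 and -1.33.

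The lowest ratio of all was that of Cdkn1a, which encodes the cell-cycle inhibitor p21 (chromosome 17, 29090976 to 29100727, plus strand). It stood at 2.59, 79.2, 264, 1.73 and 7.34 CPM over the 5 libraries, so that 8 h was the peak and 16 h the floor. Its log2 ratio was -7.25 (-7.65 to -6.88), from 8 h to a level 153-fold lower. Ddit4, an inhibitor of mTORC1, followed the same order at 5.29, 14.8, 56.1, 2.68 and 7.42 CPM (-4.39), and Gadd45g, a stress-inducible growth-arrest gene, stood at 94.3 and 18.9 CPM (-2.31). Of 17 growth-arrest genes only 6 reached 50 CPM, and 4 of these were lower and 0 higher. Ddit4, Gadd45g and Foxo1 (96.0 and 34.3 CPM) reached it at 8 h but not at 16 h, as did Cdkn1a. The median of -1.90 [-3.30 to -0.01] became -0.59 with genes chosen by their mean over 0, 4 and 24 h, and -0.0072 with a minimum of 10 CPM.

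Glucocorticoid-responsive genes were mostly lower at 16 h: 12 of 21 measured members, with 2 higher (Lcn2 and Dusp1) and a median of -1.23 [-1.54 to -0.79]. In the low serum amyloid range the median was -0.79. Cdkn1a, Lpin1 and the metallothioneins belong to this list as well, and the lists overlap. Fkbp5, a chaperone that limits receptor activity, stood at 22.1, 134, 288, 37.7 and 122 CPM, a log2 ratio of -2.93 (-3.02 to -2.85). Lpin1, a phosphatidate phosphatase and co-activator, stood at 181, 937, 1568, 126 and 363 CPM (-3.64, -3.69 to -3.59). Igfbp1, an insulin-repressed binding protein, stood at 276 and 117 CPM (-1.23, but -0.81 in the low serum amyloid range), and Angptl4, an inhibitor of lipoprotein lipase, at 333 and 79.2 CPM (-2.07). For each of these 4 genes 8 h was the highest or, for Igfbp1, level with the 4 h library at 276 CPM.

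Metallothioneins, which bind zinc and are induced by metals and glucocorticoids, were both lower. Mt1 stood at 111 CPM at 0 h, 5308 CPM at 4 h, 6149 CPM at 8 h, 1452 CPM at 16 h and 1639.7 CPM at 24 h, a log2 ratio of -2.08 (-2.10 to -2.07). Mt2 stood at 27.1, 1839, 1716, 505 and 405 CPM (-1.76, -1.79 to -1.74). At 16 h the low serum amyloid range held 498 CPM of Mt1 and the high range 2077 CPM, both below 8 h. The other 3 measured members of the zinc list, Slc39a14, Slc30a10 and Slc30a1, passed neither limit (-0.22, -0.58 and 0.30), and the list's median was -0.58 [-1.92 to -0.22].

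Bases before the 2 genes are shown with the core of the metal response element, the site of the zinc-sensing factor MTF1. Capitals mark TGCACNC or TGCGCNC on either strand, where N is any base. Mt1 is chr8:94178839-94179081 and Mt2 chr8:94172368-94172617, both on the plus strand (RefSeq, GRCm38.p6).
Mt1: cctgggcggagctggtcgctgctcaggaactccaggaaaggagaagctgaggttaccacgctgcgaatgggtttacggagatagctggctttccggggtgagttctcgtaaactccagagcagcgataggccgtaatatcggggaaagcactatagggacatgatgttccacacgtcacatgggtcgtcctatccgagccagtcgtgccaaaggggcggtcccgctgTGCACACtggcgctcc
Mt2: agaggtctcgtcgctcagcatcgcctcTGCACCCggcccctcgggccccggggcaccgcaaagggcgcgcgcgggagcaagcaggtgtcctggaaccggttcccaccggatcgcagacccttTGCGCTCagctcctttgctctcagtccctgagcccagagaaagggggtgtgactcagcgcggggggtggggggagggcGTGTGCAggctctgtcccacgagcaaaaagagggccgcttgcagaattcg
Within the 243 bases shown for Mt1, TGCACNC was found once. It began 23 bases before the RefSeq start, which lies past the last base shown. Before Mt2 it began 223 and 50 bases from the start, with TGCGCNC at 128. Bases outside the stretches shown were not marked, so that these are not counts over whole promoters. The cores were present before 10.4% (TGCACNC) and 12.5% (TGCGCNC) of all starts, so that they are common letters.

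The core gluconeogenic genes passed neither limit. Pck1, which makes phosphoenolpyruvate from oxaloacetate, stood at 3662 CPM at 8 h and 3741 CPM at 16 h (log2 ratio 0.03), G6pc at 729 and 784 CPM (0.11), Fbp1 at 652 and 923 CPM (0.50) and Pcx, pyruvate carboxylase, at 280 and 237 CPM (-0.24). The signs of Pck1 and G6pc turned with TMM (-0.15 and -0.08), and also when scaled by median ratios (-0.12 and -0.05). Over the settings Pck1 had the other sign in 10. It ran from -0.55 in the most central to 0.33 in the most portal cells by landmark genes, parts that did not match between libraries. The aminotransferases and the glucose-6-phosphate transporter of the list did pass the limit. Got1, which shuttles carbon between aspartate and oxaloacetate (chromosome 19, 43499752 to 43524605, minus strand), stood at 121, 555, 1331, 207 and 459 CPM (-2.69, -2.72 to -2.65). Gpt2 (632 and 237 CPM), Got2 (538 and 220 CPM) and Slc37a4 (248 and 99.1 CPM) were lower by -1.41, -1.29 and -1.32. Of 13 measured members, 4 were lower and 0 higher, with a median of 0.0033 [-0.24 to 0.03] that was negative in 16 of 26 settings (-0.18 with TMM).

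Amino acid breakdown and the urea cycle held more lower genes than the 9.74% over all genes. Of 33 amino acid catabolic genes, 9 were lower and 2 (Oat and Csad) higher, with a median of -0.58 [-0.76 to -0.35]. Oat lost its call in cells with 3000 to 10000 UMIs (0.15). Tat, tyrosine aminotransferase, stood at 3498 and 1364 CPM (-1.36, but -0.77 in the low serum amyloid range), Bhmt, which remethylates homocysteine, at 4566 and 1568 CPM (-1.54), Sds, serine dehydratase, at 509 and 157 CPM (-1.70) and Prodh, proline dehydrogenase, at 218 and 41.4 CPM (-2.39). All 4 were at their 5-library peak at 8 h. Ass1, the argininosuccinate synthase of the urea cycle, stood at 2485, 3249.9, 5620.4, 1372 and 3085 CPM (-2.03, -2.05 to -2.02), and Asl, the next enzyme, at 592 and 204 CPM (-1.54). In all, 3 of 7 urea cycle genes were lower and 0 higher (median -0.89 [-1.17 to -0.73]). Cps1 (4543 and 3143 CPM) passed neither limit, and Otc had the opposite sign, at 389 and 678 CPM.

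**Figure D3:**
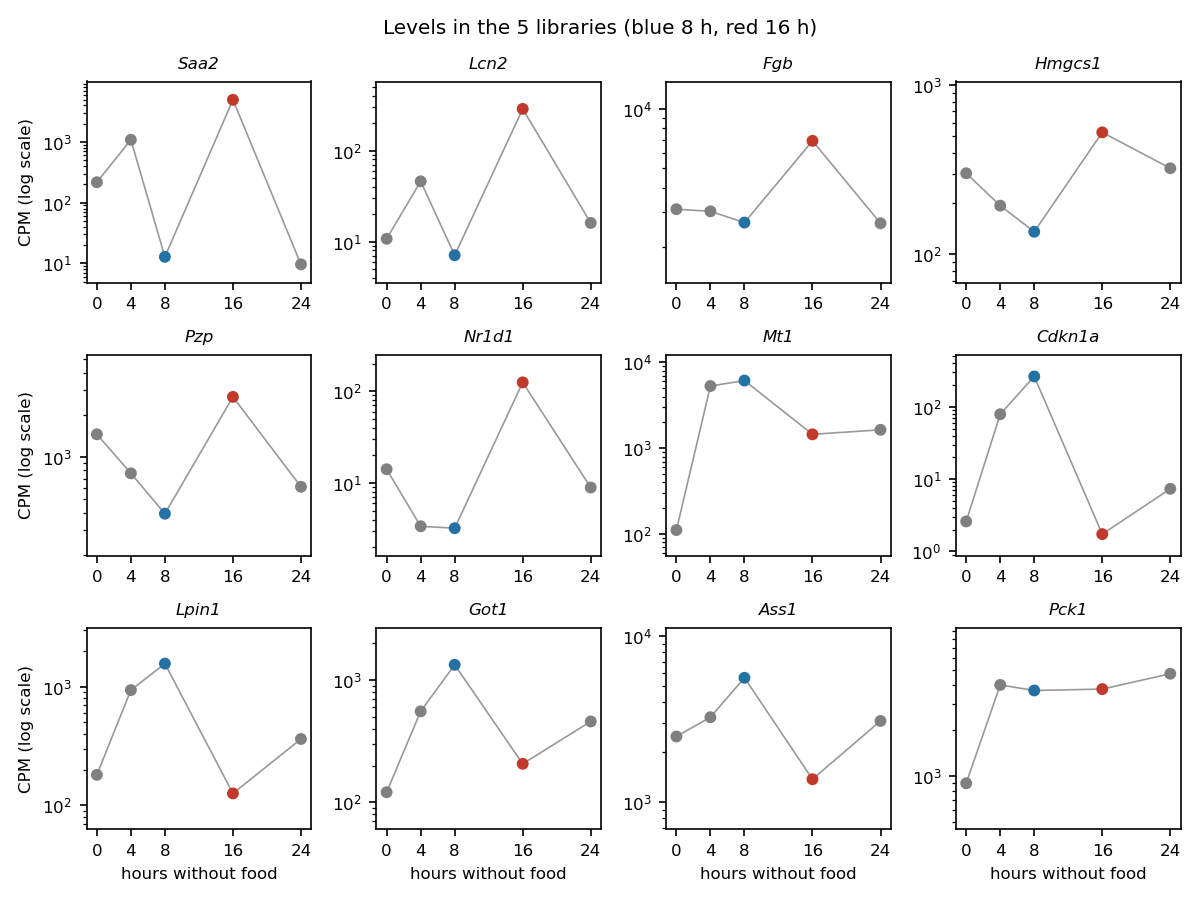
CPM (y axes, log scale, differing between panels) of 12 genes against hours without food (x axes), with 1 library per point. The 8 h library is blue and the 16 h library red: Saa2, Nr1d1 and Hmgcs1 are highest at 16 h, Cdkn1a, Lpin1, Got1 and Ass1 highest at 8 h, and Pck1 stands at 3662 and 3741 CPM.

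Cholesterol synthesis genes were higher: 10 of 19 measured members, with 1 lower (Pmvk) and a median of 1.03 [0.52 to 1.63]. In the low serum amyloid range the median was 0.52, and Hmgcs1 (0.94) and Idi1 (0.73) did not reach 2-fold. Hmgcs1, which makes the precursor of mevalonate, stood at 302, 194, 136, 527 and 323 CPM, a log2 ratio of 1.95. Msmo1, a sterol methyl oxidase, stood at 88.6 and 396 CPM (2.16), and Insig1, a sterol-regulated brake on synthesis, at 182 and 562 CPM (1.63). These 3 genes had their lowest level of the 5 libraries at 8 h. At 16 h the low serum amyloid range held 261 CPM of Hmgcs1 and the high range 704 CPM.

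The bases before Hmgcs1 are shown for a motif of the sterol response type, bound by SREBP factors. Capitals mark TCACNCCAC, where N is any base, in chr13:119690101-119690350 (plus strand, RefSeq, GRCm38.p6).
Hmgcs1: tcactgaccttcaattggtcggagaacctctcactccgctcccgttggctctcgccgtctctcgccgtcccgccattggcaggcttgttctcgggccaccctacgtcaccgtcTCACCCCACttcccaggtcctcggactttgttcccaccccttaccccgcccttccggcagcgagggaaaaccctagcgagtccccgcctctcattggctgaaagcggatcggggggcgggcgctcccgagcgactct
It began 137 bases before the start. Of the 10 higher cholesterol genes, 7 were in the table of starts, and 1 of them held these letters within 250 bases of any start. Of all starts, 1.05% did, which is a share of starts and not of genes.

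Among 17 measured lipogenic genes, 3 were higher, 2 lower and 12 passed neither limit. Srebf1, the transcription factor that drives the pathway, stood at 22.9 and 64.0 CPM (1.48), and the elongase Elovl6 at 22.6 and 69.4 CPM (1.62), both far below their fed levels of 438 and 863 CPM. Thrsp, a lipogenesis-linked nuclear protein, stood at 458 and 137 CPM (-1.74), and Acacb, the acetyl-CoA carboxylase that restrains fat oxidation, at 91.1 and 16.3 CPM (-2.48). The list's median of 0.43 [-0.23 to 0.56] moved to -0.0027 with TMM and was -0.23 in the most central cells by landmark genes. Scd1, a desaturase, stood at 5168 and 9445 CPM (0.87).

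Of 19 genes of fat oxidation and ketogenesis, 1 (Bdh1) was higher and 0 lower, with a median of 0.29 [0.09 to 0.32]. Bdh1, which interconverts the ketone bodies, stood at 55.1 and 115 CPM (1.06), past 2-fold in 18 of 26 settings. PPAR alpha targets, which overlap with them, had 1 higher and 2 lower among 12 measured (median -0.51 [-0.69 to 0.22]), and the higher one, Acot4 (1.01), passed 2-fold in 14 of 26 settings. Plin5, a lipid droplet coat protein, stood at 208 and 48.9 CPM (-2.09). Lipid droplet genes gave 1 higher and 3 lower of 9 (-0.35 [-0.62 to 0.01], 0.01 with genes chosen by their mean over 0, 4 and 24 h), lipoprotein and lipid transport genes 2 higher and 0 lower of 18 (0.08 [-0.15 to 0.28], -0.12 with TMM), glycolysis and fructose genes 1 higher and 3 lower of 12 (-0.59 [-0.82 to -0.46]) and glycogen genes 2 higher and 2 lower of 10 (0.45 [0.18 to 0.66]).

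Among 15 bile acid genes, 4 were higher, 3 lower and 8 passed neither limit (median 0.01 [-0.18 to 0.34], -0.17 with TMM). Cyp7a1, the rate-limiting enzyme of synthesis, stood at 71.4 and 26.9 CPM (-1.41). Its ratio was -2.93 in the low and -0.89 in the high serum amyloid range. Cyp8b1, which sets the share of cholic acid, stood at 491 and 163 CPM (-1.59). Higher were the uptake transporters Slc10a1 (429 and 1012 CPM, 1.24) and Slco1b2 (554 and 1707 CPM, 1.62), the export pump Abcc2 (210.4 and 465 CPM, 1.15, but 0.96 with TMM) and Nr0b2, a repressor of synthesis (26.0 and 69.8 CPM, 1.43). Abcb11, the bile salt export pump (318 and 258 CPM, -0.31), passed neither limit.

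Many cytosolic ribosomal protein genes were lower. Of 81 measured members, 42 were lower, 0 higher and 39 passed neither limit, with a median of -1.04 [-1.26 to -0.74], and 8 lay above 0, the highest being Rps26 (362 and 477 CPM, 0.40). Rps2 stood at 743, 2648, 2785, 647 and 2216 CPM (-2.10), and Rpl10 at 216, 919.95, 1067, 303 and 747 CPM (-1.82). Their summed share of UMIs was 3.70, 8.97, 8.22, 4.22 and 6.92% at 0, 4, 8, 16 and 24 h, so that 0 and 16 h stood below the other libraries. Within 16 h it was 2.78% in cells with under 3000 UMIs and 4.44% in cells with 3000 to 10000, and at 8 h 7.14% in cells of that same range. With this depth range in both libraries the median was -0.74. Nuclear genes of oxidative phosphorylation gave 1 higher and 13 lower of 81 (-0.53 [-0.72 to -0.43]) and mitochondrial ribosomal proteins 0 higher and 6 lower of 30 (-0.51 [-1.26 to -0.36]).

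The nuclear RNAs Malat1, Neat1 and Kcnq1ot1 were higher at 16 h than at 8 h. Malat1 made up 0.453, 0.339, 0.106, 0.344 and 0.298% of non-mitochondrial UMIs at 0, 4, 8, 16 and 24 h. Neat1 made up 0.146, 0.158, 0.0281, 0.197 and 0.0610%. Both were thus lowest at 8 h, and Malat1 at 16 h stood below its fed level. Malat1 stood at 1056 CPM at 8 h and 3438 CPM at 16 h (1.70), Neat1 at 281 and 1970 CPM (2.81) and Kcnq1ot1 at 11.2 and 51.9 CPM (2.21), all 3 named after their values were seen. Of 30 immediate-early genes, which respond within minutes to stress and growth signals, 9 reached 50 CPM, and 5 of these were higher and 0 lower. Egr1, Junb, Dusp6 and Jun reached it at 16 h but not at 8 h. The median of 1.26 [0.45 to 1.81] was 0.84 with genes chosen by their mean over 0, 4 and 24 h, 1.81 in the low and 0.45 in the high serum amyloid range, where Jun (0.78) and Dusp1 (0.87) no longer passed 2-fold. Egr1 stood at 39.1, 94.1, 17.8, 150 and 20.5 CPM (3.08), and Junb at 14.5 and 107 CPM (2.87). Heat shock genes gave 0 higher and 1 lower (Hspa8) of 8 (median -0.04 [-0.24 to 0.24], 0.17 in cells with 3000 to 10000 UMIs). Hspa8 stood at 729 and 348 CPM (-1.06, but -0.80 in the low serum amyloid range). For depth per cell, cells with 3000 to 10000 UMIs in both libraries gave 345 higher and 272 lower genes, with 279 of the 346 and 225 of the 298 called again. The part of nuclear RNAs and immediate-early genes in the other results was not tested.

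Folding factors of the endoplasmic reticulum, where secreted proteins mature, were higher in part: 6 of 24 with 0 lower (median 0.49 [0.31 to 0.57]). Hspa5, the main chaperone there, stood at 348 and 765 CPM (1.14, but 0.85 in cells with 3000 to 10000 UMIs), and Pdia4, a disulfide isomerase, at 57.2 and 298 CPM (2.38), against fed levels of 3266 and 937 CPM. Complement and coagulation genes gave 7 higher and 0 lower of 33 (0.37 [0.15 to 0.45]). Negative acute-phase proteins, which fall in inflammation, gave 2 higher and 0 lower of 14 (-0.05 [-0.23 to 0.09]), with 9 below 0. Pzp, a protease inhibitor, stood at 1449.7, 763, 393, 2681 and 612 CPM (2.77), and Ces1c, a secreted carboxylesterase, at 592 and 1719.8 CPM (1.54). Of those that passed neither limit, Alb, albumin, stood at 50330 and 82747 CPM (0.72), Rbp4, the plasma carrier of retinol, at 6327 and 3749.6 CPM (-0.75) and Apoa1, the main protein of high-density lipoprotein, at 7391 and 4452 CPM (-0.73).

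Major urinary proteins, pheromone carriers secreted in male mice, gave 8 higher and 1 lower of 12 (median 1.44 [1.12 to 1.70]). Mup7 stood at 917 and 3467 CPM (1.92) and Mup9 at 54.0 and 338 CPM (2.65), while Mup20 stood at 15753 and 15210 CPM (-0.05). The members are near-identical copies, so that reads may be split between them. Among drug-metabolising families, 6 of 23 Cyp1, Cyp2 and Cyp3 genes were higher and 0 lower (0.58 [-0.03 to 0.81], but -0.03 in cells with 3000 to 10000 UMIs in both libraries). Conjugation enzymes gave 6 higher and 2 lower of 23 (0.13 [-0.26 to 0.49], -0.09 with TMM), among them Gstp1, a glutathione transferase, at 293 and 21.0 CPM (-3.80), and Ugt2b35 at 85.2 and 305 CPM (1.84). NRF2 targets gave 4 higher and 1 lower of 12 (0.62 [0.27 to 0.84]).

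The remaining lists are given by their counts. The insulin, growth hormone and IGF axis gave 0 higher and 3 lower of 13 (-0.08 [-0.26 to 0.06]), secreted metabolic regulators 2 and 2 of 14 (0.05 [-0.16 to 0.35], -0.13 with TMM), nuclear receptors 2 and 2 of 13 (0.38 [-0.99 to 0.44]), iron handling 2 and 1 of 10 (-0.18 [-0.36 to 0.54]), interferon response 0 and 1 of 4 (-0.10 [-0.28 to 0.86]), proteasome 0 and 0 of 24 (0.42 [0.21 to 0.46]) and autophagy and lysosome 2 and 1 of 25 (-0.06 [-0.24 to 0.01]). Angptl8, an insulin-induced secreted factor, stood at 23.9 and 128 CPM (2.42) against 499 CPM in the fed library. Hnf4a, the hepatocyte identity factor, stood at 573 and 263 CPM (-1.13).

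**Figure D4:**
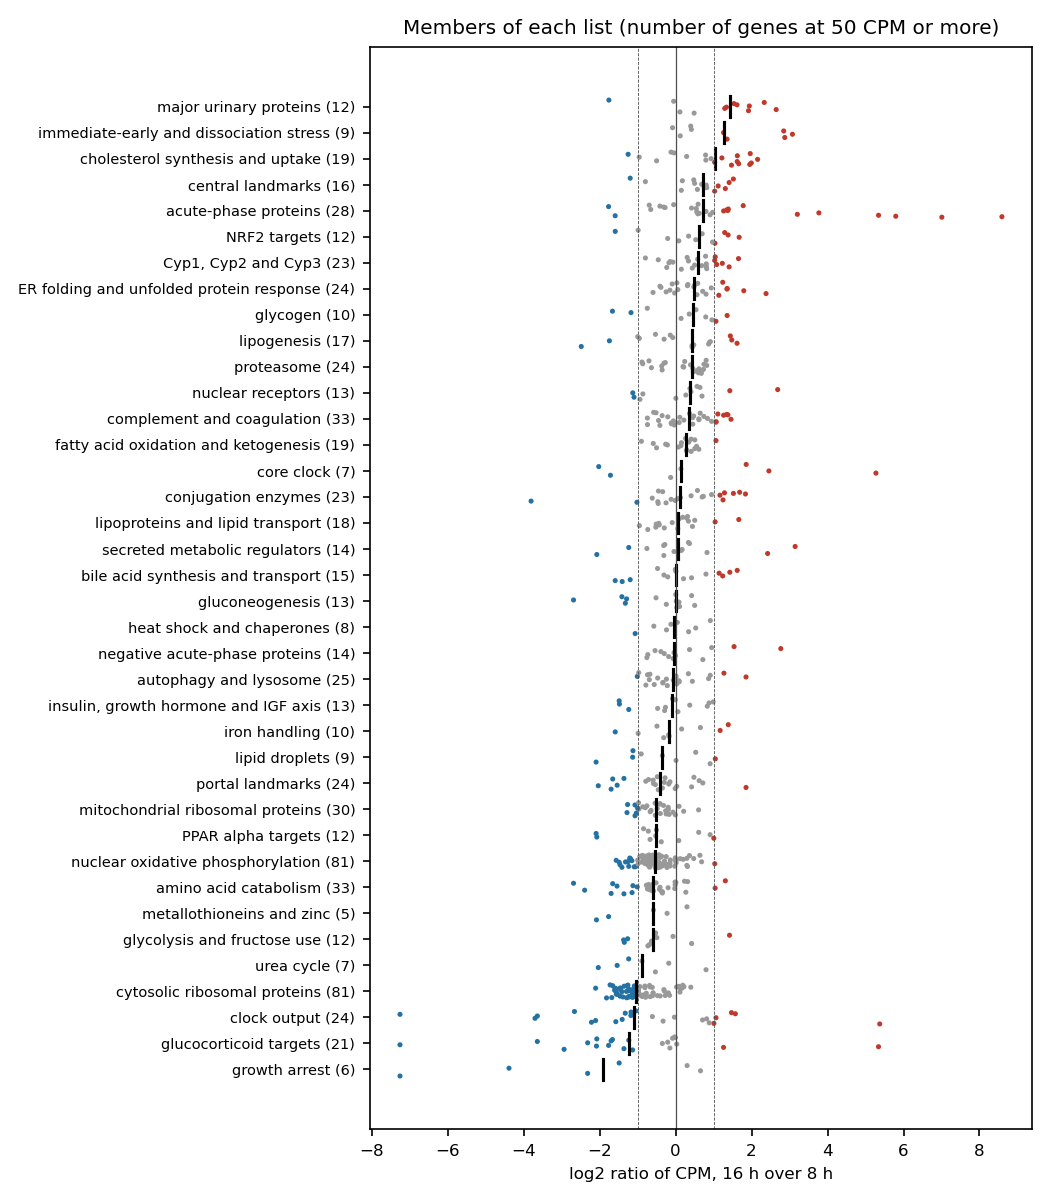
Points are genes with 50 CPM or more in either library, placed by the log2 ratio of 16 h over 8 h (x axis) in rows by list (y axis, number of genes in brackets), for lists with 5 or more such genes. Black bars are medians, running from 1.44 for major urinary proteins to -1.90 for growth arrest, and dashed lines mark 2-fold.

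Among the remaining genes at the extremes, Arrdc3, an arrestin-like adaptor repressed by insulin, stood at 148, 50.3, 10.9, 288 and 55.8 CPM (4.72). Osgin1, an oxidative-stress gene, stood at 29.9 and 263 CPM (3.13), Rnd3, a small GTPase, at 5.29 and 61.3 CPM (3.53), and Rbfox2, a splicing factor, at 15.7 and 119 CPM (2.92). On the lower side stood Eif4ebp3, a translation repressor (475 and 44.0 CPM, -3.43), Selenbp2 (685 and 45.2 CPM, -3.92) and Acmsd, an enzyme of tryptophan breakdown (66.5 and 10.3 CPM, -2.69). The unnamed transcripts Gm43305 (435 and 16.3 CPM, -4.74) and Gm16573 (81.8 and 10.3 CPM, -2.99) were lower as well; the latter is annotated antisense to Parp4.

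Hepatocytes differ along the axis from portal to central vein, and each library was divided into 3 equal parts by landmark genes of that axis, which are a range of scores and not positions in tissue. Portal landmarks as a list gave 1 higher and 5 lower of 24 (median -0.40 [-0.74 to -0.14]) and central landmarks 5 higher and 1 lower of 16 (0.72 [-0.11 to 1.71], but -0.11 in cells with 3000 to 10000 UMIs). Saa2 had log2 ratios of 8.68, 8.38 and 8.70 in the portal, middle and central part. Of 273 named genes outside the landmarks, Elovl3 had the widest gap between portal and central parts, with -5.23 (-5.43 to -5.04) in the portal, -4.43 in the middle and -2.84 (-2.92 to -2.76) in the central part. Got1 ran the opposite way, with -2.37, -2.75 and -3.09, and so did Lpin1, with -3.39, -3.62 and -4.07. Cyp4a14, a fatty acid hydroxylase, changed sign, with -0.59, 0.03 and 0.58. The parts were cut by rank within each library and did not match between libraries. The median log2 ratio of central landmarks was 1.71 within the portal and 0.53 within the central part. That of portal landmarks was -0.25 and -0.74. A ratio within a part therefore need not compare like cells, and whether these genes changed by zone was not tested. These intervals cover counting error, and the difference between parts has no replicate check.

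**Figure D5:**
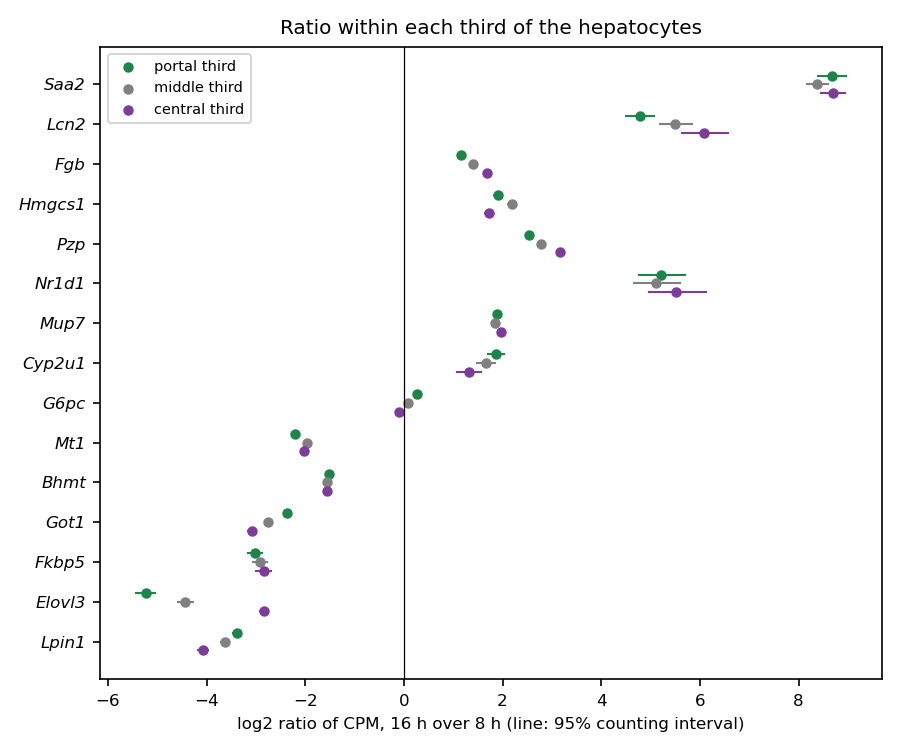
Points give the log2 ratio of 16 h over 8 h (x axis) of 15 genes (y axis) in the portal, middle and central part of the hepatocytes, and lines the 95% counting interval. Elovl3 runs from -5.23 to -2.84, and Bhmt stays between -1.55 and -1.51.

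Shares of cells were compared after thinning each cell to 1000 UMIs, which left out 25 hepatocytes at 8 h and 117 at 16 h. Cells scored as endothelial-like, 17 at 8 h and 51 at 16 h (45 after thinning) with median depths of 1682 and 1200 UMIs against 15049 and 4406 in hepatocytes, served as cells that should lack hepatocyte RNA; barcodes of this kind were left out of the hepatocytes here. Cdkn1a was seen in 22.3% of 2682 hepatocytes at 8 h (20.8 to 24.0%, 84.7% before thinning) and in 0.134% of 8965 at 16 h (0.0692 to 0.234%, 0.551% before thinning). In endothelial-like cells it was seen in 3 of 17 (17.6%) and 4 of 45 (8.89%), the latter above the hepatocyte share at 16 h, so that these cells give no background level for this gene. Lpin1 was seen in 77.0% (75.3 to 78.5%) and 11.1% (10.5 to 11.8%) of hepatocytes, against 17.6% and 4.44% of endothelial-like cells, and before thinning in 98.4% and 34.1%.

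Saa2 was seen in 0.858% (0.544 to 1.28%) of hepatocytes at 8 h and 65.8% (64.8 to 66.7%) at 16 h, and before thinning in 3.03% and 79.3%. At 16 h it was also seen in 64.4% of endothelial-like cells, so that the share of cells with a UMI reads as background, while the mean was 4.72 Saa2 UMIs per 1000 in hepatocytes and 1.11 in endothelial-like cells. Pzp was seen in 30.1% and 91.6% of hepatocytes (33.3% of endothelial-like cells at 16 h). Pck1 was seen in 96.4% and 93.4% of hepatocytes and in 11.8% and 55.6% of endothelial-like cells.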

How the data were processed

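The authors deposited raw UMI counts for each gene in each barcode; per the file headers the matrix comes from Cell Ranger 6.0.1, and the submitters' processing notes name mm10. They stand in 1 matrix of 32285 genes by 50000 barcodes, and a barcode table assigns 10000 barcodes to every library. The libraries came from 10x Genomics 3' v3 chemistry, per the labels' protocols. Of the gene IDs, 32158 (99.6%) were found in GENCODE M21 (GRCm38), whose positions are given.

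Hepatocyte UMIs were summed per library and scaled to CPM of non-mitochondrial UMIs. Genes with 50 CPM or more in either library were called at 2-fold. With 1 library a side no p-value was computed; intervals are exact Poisson, conditional binomial or Clopper-Pearson, at 95%, for counting error only. Doublets were not called. The fold limits, 39 gene lists, markers and the rule for named genes (the 15 highest and 15 lowest ratios, up to 6 members of a list by level and 4 by ratio, and set genes) were chosen with earlier results of these data known. Neat1, Malat1, Kcnq1ot1, Serpina1e, Lrg1, Csad, Saa4, Pmvk, Rps26 and Sox9, outside the rule, were named after their values were seen. The zone score was the mean z-score of portal minus that of central landmarks within a library. Upstream bases are RefSeq's (GRCm38.p6), cut at the outermost GENCODE start. Python 3.11.15, scipy 1.17.1, edgeR 4.0.16 (TMM) and DESeq2 1.42.0 (size factors) were used for scaling and alternatives; 28 alternatives were tried. Some members of the lists are counted but not reported here by name.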

Additional observations from a re-analysis of the deposited data

How the results depend on the processing

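Of 28 alternatives, 4 were chosen after seeing the data. Over the 22 that change the ratio of a named gene, each of the 153 named genes past 2-fold kept its direction, and 107 stayed past 2-fold wherever they had a value. The count of higher genes moved to 222 with TMM scaling. A minimum of 10 CPM gave 775 higher and 534 lower genes, a minimum of 200 CPM 121 and 143, and no minimum beyond 1 UMI (prior of 0.5 UMI) 3901 and 1940. A limit of 1.5-fold gave 801 and 667, and a limit of 4-fold 49 and 26; these follow from the limits. With 3000 to 10000 UMIs per cell in both libraries (544 and 6710 cells) 345 genes were higher and 272 lower, and 279 of the 346 and 225 of the 298 were called again. Of 39 list medians, 18 changed sign in at least 1 setting, each of them from a main value between -0.51 and 0.72. The acute-phase median fell to 0.02 in the cells at or below their library's median serum amyloid and Lcn2 share; at 8 h that leaves no such UMI by construction. No paired analysis was possible because each time point was 1 library. Ratios of genes under about 3 UMIs in a library are limited by depth.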
